A study of Mus musculus with 3 samples.

Results

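The genes described here encode the voltage-gated sodium and calcium channels and the HCN pacemaker channels, in the hearts of mice with abdominal aortic constriction (AAC), with AAC followed by dapagliflozin (AAC + DAPA), or with a sham operation. They were chosen by symbol alone: Scn followed by a number and a or b, Cacna, Cacnb or Cacng, or Hcn and a number. Of 19505 genes named by a probe, 38 had such a symbol: 10 sodium channel subunits, 25 calcium channel subunits and 3 pacemaker channels. AAC narrows the abdominal aorta, against which the left ventricle then has to pump. The AAC + DAPA mice drank dapagliflozin, which blocks glucose uptake through SGLT2 in the kidney, for 12 weeks at a daily 25 mg/kg, while AAC and sham mice received saline over the same time. All were wild-type C57BL/6 mice labelled male, for which the labels give an age of 10 weeks and the methods a younger one on arrival. By the methods the RNA was taken after the 12 weeks of treatment, so neither age is that of the hearts at sampling. Each condition was measured on 1 array of heart RNA, and the sources used here do not say whether that RNA came from 1 mouse or several.

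Voltage-gated sodium channels open on depolarization and carry the fast upstroke of the action potential in working heart muscle. L-type calcium channels open next, and the calcium that enters through them releases more from the sarcoplasmic reticulum and so starts contraction. HCN channels open on hyperpolarization, bind cAMP and carry the pacemaker current of the sinoatrial node. In the sodium and calcium channels the pore lies in a large α subunit, and smaller subunits set how much channel reaches the membrane and how it opens and closes.

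With 1 array per condition no difference here has a replicate check, and none carries a p-value. The study's threshold of 1.5-fold, which is 0.585 on the log2 scale, decided which genes were called higher or lower. Probes of the same gene give a partial measure of error. Among the 55 genes with several probes, the difference between arrays had an SD between probes of 0.31 for AAC minus sham, 0.26 for AAC + DAPA minus AAC and 0.19 for AAC + DAPA minus sham (log2). Those probes read the same RNA, so these SDs hold no difference between animals. The deposited values have 2 decimals and often coincide. All 3 arrays carried the same value for 5 of the 38 channel genes, and exactly 2 arrays did for 16, while over all probes these shares were 14.8% and 37.0%. A difference of 0.00 therefore says only that the summarized values coincided.

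Before any channel gene is compared, 2 features of the arrays have to be stated. Of 32 measured Y-linked genes, 24 exceeded both other arrays by 1.5-fold or more on the AAC array, although all mice are labelled male. Eif2s3y, one of them, read 2.72 on the AAC + DAPA array, 11.71 on the AAC array and 2.50 on the sham array (log2). Kdm5d, another, read 2.81, 6.39 and 2.97 on the same arrays. The AAC + DAPA and sham values of both genes lay under the 5th percentile of all probes, 3.02 on each of those arrays. For these genes the male label thus went with the values of the AAC array and not with those of the other arrays. Which label is at fault could not be settled. AAC and the difference in Y-linked genes cannot be told apart. The AAC + DAPA and sham values are therefore given beside the AAC value for each called channel gene. The second feature is that clock genes separated the sham array from the other two. Of 12 measured clock genes, 8 lay at least 1.5-fold above and 3 under the sham array on the AAC + DAPA array. On the AAC array 6 lay above and 3 under it. The AAC + DAPA and AAC arrays also differed from each other in clock genes. With DAPA, 4 of the 12 (Arntl, Npas2, Nr1d1 and Per1) were at least 1.5-fold higher than in AAC and 0 lower. Over all genes 4.16% were higher and 4.18% lower in that comparison. Heart muscle was well represented on every array: none of 8 cardiomyocyte markers was low by the rule given next, and their summed level (log2 of the summed linear values) was 21.42 in AAC + DAPA, 21.39 in AAC and 21.36 in sham.

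Most of the channel genes read low. A gene was called low when each of its 3 values lay under the 95th percentile of 1427 olfactory, vomeronasal and trace amine receptor genes on the same array, which was 5.63 for AAC + DAPA, 5.63 for AAC and 5.67 for sham (log2). By this rule 28 of the 38 channel genes (73.7%) were low, against 51.8% of all genes. The 10 that were not low were the sodium channel genes Scn3a, Scn4b and Scn7a and the calcium channel genes Cacna1c, Cacna1h, Cacna1s, Cacna2d1, Cacnb2, Cacng3 and Cacng7. Probes differ in how strongly they bind, so the values of different genes were not ranked against each other.

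**Figure D1:**
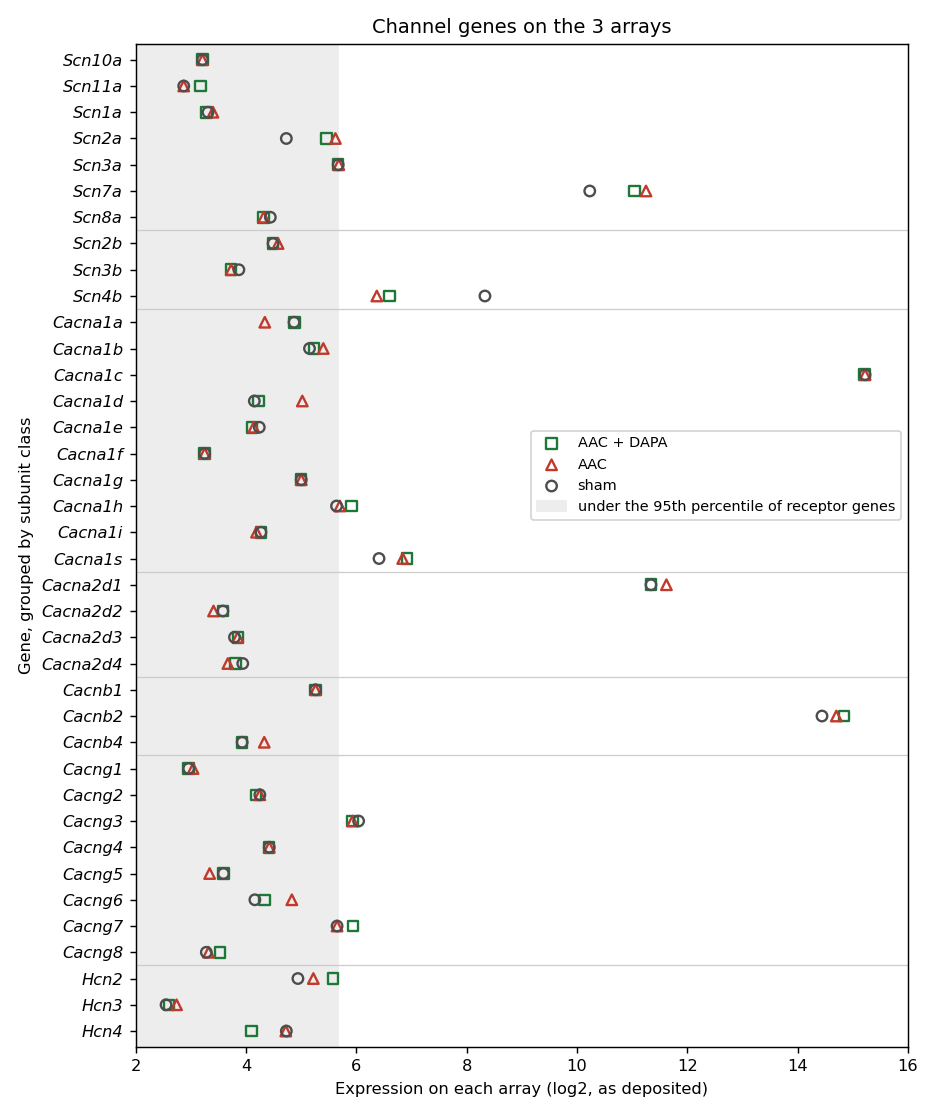
Deposited log2 expression (horizontal axis) of the 38 channel genes (rows, grouped by subunit class) on the AAC + DAPA array (squares), the AAC array (triangles) and the sham array (circles), 1 array each. The grey band marks values under the 95th percentile of olfactory, vomeronasal and trace amine receptor genes, at its highest array value of 5.67. Cacna1c shows 3 coinciding symbols, and Scn4b shows a sham value of 8.33 well apart from 6.60 and 6.37.

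Between AAC and sham, 5 of the 38 channel genes passed 1.5-fold, where 9.86% of all genes did. In AAC, 4 of them were higher (4.88% of all genes) and 1 was lower (4.98%). The 4 higher genes were Scn7a, Scn2a, Cacna1d and Cacng6, and the lower gene was Scn4b. Between AAC + DAPA and AAC, 2 passed, where 8.34% of all genes did. Both of them, Cacna1d and Hcn4, were lower with DAPA (4.18% of all genes), and none was higher (4.16%). Between AAC + DAPA and sham, 5 passed, where 6.60% of all genes did. With DAPA, 3 were higher (Scn7a, Scn2a and Hcn2, against 3.22% of all genes) and 2 lower (Scn4b and Hcn4, against 3.38%). The median difference over the 38 genes was 0.00 in each comparison, the same as over all genes. With so few members, these counts stand for single genes and not for a shift of the families. For the other 31 channel genes all 3 arrays lay within 1.5-fold of each other. Among the 90 genes of potassium channels and their subunits whose symbol begins with Kcn, 3 passed 1.5-fold for AAC against sham, 4 for AAC + DAPA against AAC and 3 for AAC + DAPA against sham. For the counts of markers and partners given below, the same shares over all genes apply.

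**Figure D2:**
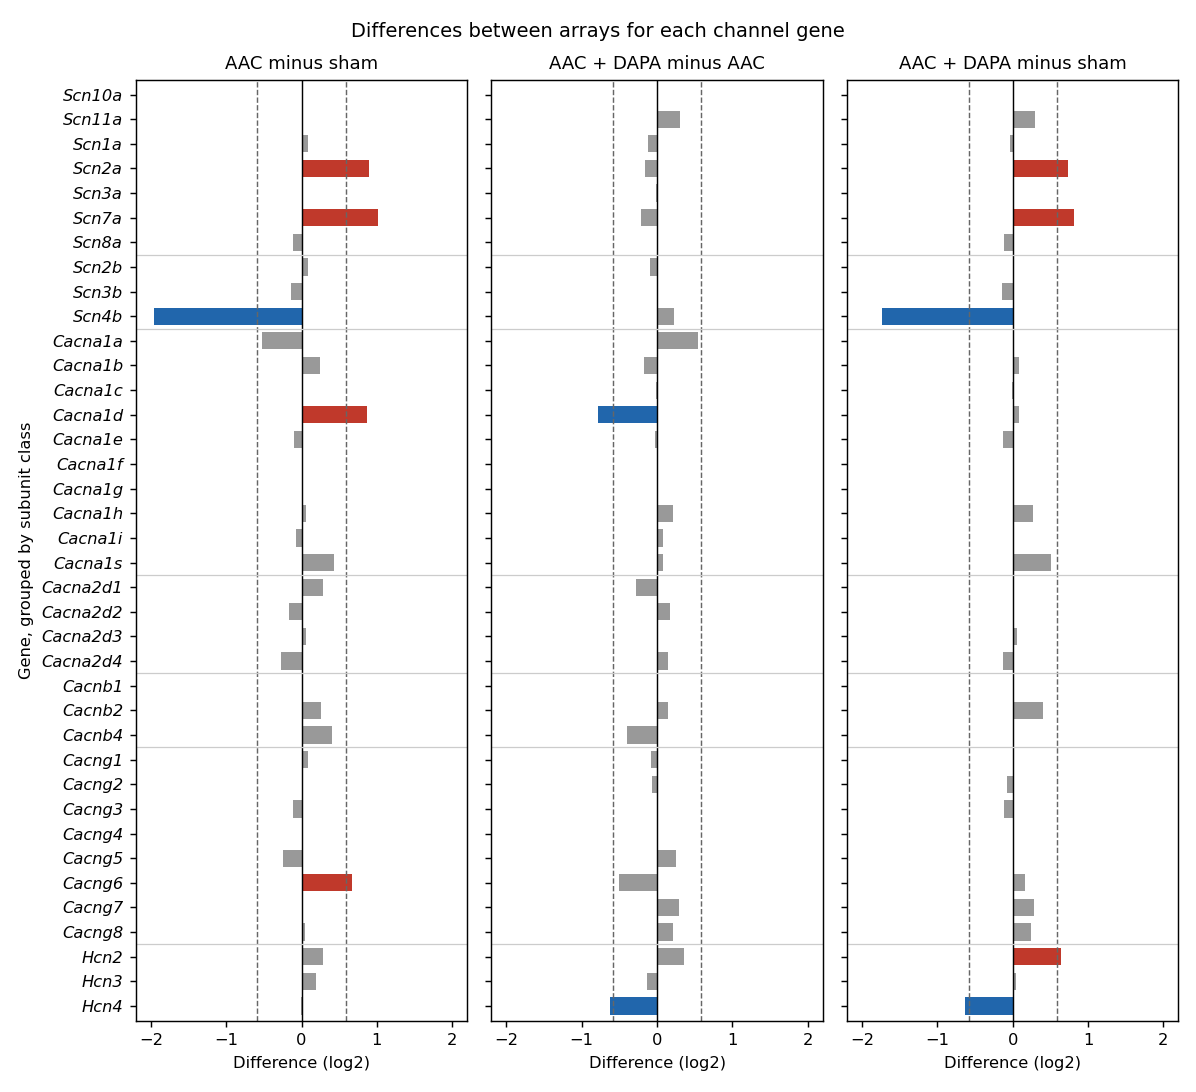
Difference between 2 arrays (log2, horizontal axis) for each of the 38 channel genes (rows), with AAC minus sham on the left, AAC + DAPA minus AAC in the middle and AAC + DAPA minus sham on the right. Dashed lines mark 1.5-fold, red bars lie above it and blue bars below it, and 12 bars in all pass it, the longest being that of Scn4b at −1.96 and −1.73 against sham.

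Promoters of 4 called genes are shown because these are the genes with the largest differences from sham, Scn4b and Scn7a, and the pair of pacemaker channels that lay on opposite sides of sham in AAC + DAPA, Hcn4 and Hcn2. Each run is the 250 bases before the start of the RefSeq gene, read 5′ to 3′ on the strand of the gene (GRCm38.p6), and capitals mark matches, on either strand, to the letters GGGCGG of the GC box, CCAAT of the box named for them or AGATAA of the GATA motif, none of which overlap here.
Scn4b, chr9:45138374-45138623, plus strand: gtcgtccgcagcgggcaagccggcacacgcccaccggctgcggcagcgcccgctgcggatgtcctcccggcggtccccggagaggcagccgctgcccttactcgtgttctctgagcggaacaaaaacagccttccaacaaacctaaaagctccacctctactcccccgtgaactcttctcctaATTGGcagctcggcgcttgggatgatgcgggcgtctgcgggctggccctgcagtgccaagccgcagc
Scn7a, chr2:66784911-66785160, minus strand: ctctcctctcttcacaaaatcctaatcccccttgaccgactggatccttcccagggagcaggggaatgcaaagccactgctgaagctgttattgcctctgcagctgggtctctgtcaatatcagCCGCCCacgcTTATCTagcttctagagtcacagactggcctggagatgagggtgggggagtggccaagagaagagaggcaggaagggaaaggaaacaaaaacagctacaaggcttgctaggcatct
Hcn4, chr9:58822699-58822948, plus strand: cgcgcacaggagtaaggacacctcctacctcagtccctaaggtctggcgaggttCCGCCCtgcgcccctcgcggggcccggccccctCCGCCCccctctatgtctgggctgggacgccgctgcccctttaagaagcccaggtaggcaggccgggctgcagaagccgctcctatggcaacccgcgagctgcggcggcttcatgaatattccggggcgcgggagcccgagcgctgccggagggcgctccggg
Hcn2, chr10:79716384-79716633, plus strand: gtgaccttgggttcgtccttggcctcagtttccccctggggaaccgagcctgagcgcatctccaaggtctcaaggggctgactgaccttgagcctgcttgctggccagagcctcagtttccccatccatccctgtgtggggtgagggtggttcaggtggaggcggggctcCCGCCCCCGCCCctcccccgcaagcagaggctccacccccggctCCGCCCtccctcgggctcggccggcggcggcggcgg

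Scn4b, which encodes an auxiliary β subunit linked to sodium channel α subunits by a disulfide bond and known from mouse neurons for its part in resurgent sodium current, had the largest difference of all 38 genes. It read 6.60 in AAC + DAPA, 6.37 in AAC and 8.33 in sham (log2). The AAC + DAPA and AAC arrays were thus low and the sham array was high. AAC lay 3.89-fold under sham (log2 difference −1.96), and 34 of the 19505 genes, Scn4b included, lay at least as far below it. AAC + DAPA lay 3.32-fold under sham (−1.73), with 25 genes, Scn4b included, at least as far below it, and differed from AAC by 0.23. The comparison of AAC + DAPA with sham does not use the AAC array, but both differences from sham rest on the same sham value. The other β subunits read near the receptor genes. Scn2b read 4.49 in AAC + DAPA, 4.58 in AAC and 4.49 in sham, and Scn3b 3.73, 3.73 and 3.87 on the same arrays, both of them low by the rule above. Scn2b is the next protein-coding gene to Scn4b on chromosome 9 (RefSeq, GRCm38.p6), and AAC minus sham was 0.09 for Scn2b and −1.96 for Scn4b. Of 8 smooth muscle markers, Acta2 lay under sham and Myh11 above it on both other arrays, and 4 of the 8 were low. Acta2 read 12.13 in AAC + DAPA, 10.08 in AAC and 15.25 in sham (log2), and the summed level of the list, which it carried, was 12.40, 11.07 and 15.29 on the same arrays. Their part in the Scn4b difference, and that of the clock genes, was not tested.

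Scn7a encodes a relative of the sodium channel α subunits that senses the sodium concentration rather than the membrane voltage. It read 11.04 in AAC + DAPA, 11.25 in AAC and 10.23 in sham (log2), so here the sham array was the low one. AAC lay 2.03-fold above sham (1.02), where 266 genes, Scn7a included, lay at least as far above it. AAC + DAPA lay 1.75-fold above sham (0.81), where 286 genes did, and differed from AAC by −0.21. In mice Scn7a is also known from Schwann cells. Of 4 measured Schwann cell markers, Mbp lay above sham by 0.60 in AAC and Cdh19 above sham by 0.72 in AAC + DAPA, 3 of the 4 were low, and their summed level was 7.66 in AAC + DAPA, 7.32 in AAC and 7.08 in sham (log2). In whole tissue, more cells of a type and more RNA per cell cannot be told apart. The part of these markers in the Scn7a difference was not tested.

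Scn2a, the α subunit of a main sodium channel of the brain, had the same order of arrays. It read 5.46 in AAC + DAPA, 5.62 in AAC and 4.73 in sham (log2), with AAC 1.85-fold above sham (0.89) and AAC + DAPA 1.66-fold above sham (0.73). These values lie within those of the receptor genes, 2.59% of which also lay at least 1.5-fold above sham in AAC. Scn2a stands in a row of sodium channel genes on chromosome 2, with Scn3a beside it and Scn1a and Scn7a further along. Scn3a, its neighbour, read 5.67 in AAC + DAPA, 5.68 in AAC and 5.67 in sham, and Scn1a 3.28, 3.40 and 3.31. From Scn3a through Scn2a and Scn1a to Scn7a, AAC minus sham was 0.01, 0.89, 0.09 and 1.02. Of these named genes, 2 passed 1.5-fold and 2 lay near 0. Between Scn2a and Scn1a lie 3 other protein-coding genes and between Scn1a and Scn7a 1, whose values are not given here. The α subunits of sensory neurons, Scn10a and Scn11a, and that of brain and peripheral neurons, Scn8a, were low. Scn10a carried 3.21 on all 3 arrays, Scn11a read 3.17 in AAC + DAPA, 2.87 in AAC and 2.87 in sham, and Scn8a 4.32, 4.32 and 4.44 on the same arrays. Of 10 measured neuron markers, Uchl1 alone passed 1.5-fold, higher in AAC + DAPA than in sham (0.70) and than in AAC (0.62), and 8 were low.

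The sham array lay at least 1.5-fold beyond both others for 3 channel genes, Scn4b, Scn7a and Scn2a, where 3.17% of all genes had this pattern. The AAC array did so for Cacna1d alone, where 4.19% of all genes had it, and the AAC + DAPA array for Hcn4 alone, where 2.12% of all genes had it.

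The calcium channel genes of working heart muscle differed little. Cacna1c, the pore-forming subunit of the cardiac L-type channel, read 15.21 in AAC + DAPA, 15.22 in AAC and 15.22 in sham (log2), and no 2 arrays differed by more than 0.01. Cacnb2, the β subunit that brings this channel to the membrane, read 14.84 in AAC + DAPA, 14.70 in AAC and 14.44 in sham, with AAC + DAPA above sham by 0.40 and AAC above sham by 0.26. Cacna2d1, the extracellular α2δ subunit of the same channel, read 11.34 in AAC + DAPA, 11.62 in AAC and 11.34 in sham. None of these 3 reached 1.5-fold. For Cacnb2 the difference of 0.40 between AAC + DAPA and sham exceeded the SD between probes in that comparison (0.19), and that of 0.26 between AAC and sham did not (0.31). Cacnb2 itself has 1 probe, so these SDs come from other genes. They hold no difference between animals and are not a test of Cacnb2.

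Cacna1d, an L-type pore subunit that in the mouse heart is known from the sinoatrial node and the atria, was high on the AAC array alone. It read 4.23 in AAC + DAPA, 5.02 in AAC and 4.15 in sham (log2). AAC lay 1.83-fold above sham (0.87), AAC + DAPA 1.73-fold under AAC (−0.79), and AAC + DAPA differed from sham by 0.08. Both counts of Cacna1d rest on the AAC array, and all its values lie within those of the receptor genes. Of 9 sinoatrial node markers, 1 (Ntm) lay at least 1.5-fold above sham in AAC and none under it, with a list median of 0.00. Ntm read 4.79 in AAC + DAPA, 5.82 in AAC and 4.85 in sham. Markers of macrophages were also higher on the AAC array: 7 of 10 lay at least 1.5-fold above sham in AAC (4.88% of all genes). In AAC + DAPA, 7 of 10 lay under AAC (4.18% of all genes), while 1 lay above sham and 1 under it. The summed level of the macrophage markers was 12.76 in AAC + DAPA, 13.97 in AAC and 12.72 in sham. Their part in the Cacna1d difference, and that of the clock genes, was not tested.

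The T-type α1 subunits, which open at more negative voltages and are known from pacemaker cells and the fetal heart, did not reach 1.5-fold. Cacna1h read 5.91 in AAC + DAPA, 5.70 in AAC and 5.64 in sham (log2). Cacna1g carried 5.0 on all 3 arrays, and Cacna1i, known from brain, read 4.27 in AAC + DAPA, 4.19 in AAC and 4.27 in sham. Cacna1s, the L-type pore subunit of skeletal muscle, read 6.92 in AAC + DAPA, 6.84 in AAC and 6.41 in sham, so that AAC + DAPA lay above sham by 0.51 and AAC by 0.43, both under the threshold. Of 14 skeletal muscle markers, 11 were low, 0 passed 1.5-fold between AAC and sham, and 2, Casq1 and Myl1, lay above both other arrays in AAC + DAPA, while Myh4 lay 1.52-fold under AAC there. Cacng1, the γ subunit of the skeletal muscle channel, was low, at 2.96 in AAC + DAPA, 3.04 in AAC and 2.96 in sham.

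Among the neuronal and retinal calcium channel genes, Cacna1a, the pore of P/Q-type channels, came nearest to the threshold. It read 4.88 in AAC + DAPA, 4.34 in AAC and 4.87 in sham (log2), with an AAC minus sham difference of −0.53 and an AAC + DAPA minus AAC difference of 0.54. When each array was centred on its median, these differences were −0.59 and 0.61 and passed 1.5-fold. The pores of N-type and R-type channels, Cacna1b and Cacna1e, differed by at most 0.25 between any 2 arrays. Cacna1f, known from the retina and the only X-linked gene of the 38, carried 3.25 on all 3 arrays.

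The remaining auxiliary subunits of calcium channels held 1 called gene, Cacng6. This γ subunit, known from striated muscle, read 4.33 in AAC + DAPA, 4.83 in AAC and 4.16 in sham (log2), with AAC 1.59-fold above sham (0.67), while AAC + DAPA differed from AAC by −0.50 and from sham by 0.17. It was low by the rule above. Cacng7 and Cacng8, its neighbours on chromosome 7, differed from sham by 0.00 and 0.04 in AAC, the comparison in which Cacng6 was called, and by 0.29 and 0.25 in AAC + DAPA. The γ subunits Cacng2, Cacng3, Cacng4 and Cacng5, known mostly from brain, differed by at most 0.25 between any 2 arrays. Cacnb4, a β subunit of neurons, read 3.93 in AAC + DAPA, 4.33 in AAC and 3.93 in sham, and Cacnb1, the β subunit of skeletal muscle, carried 5.26 on all 3 arrays. The α2δ subunits Cacna2d2, Cacna2d3 and Cacna2d4 were low, and no 2 arrays differed by more than 0.27 for any of them.

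The 3 pacemaker channel genes were all low by the rule above, and 2 of them passed 1.5-fold, in opposite directions. Hcn4, the main HCN channel of the sinoatrial node, read 4.10 in AAC + DAPA, 4.72 in AAC and 4.73 in sham (log2). AAC + DAPA lay 1.54-fold under AAC (−0.62) and 1.55-fold under sham (−0.63), while AAC differed from sham by −0.01. With the arrays centred on their medians the difference between AAC + DAPA and AAC was −0.55 and no longer passed. Hcn2, known from brain and, in the heart, from ventricle and atrium, read 5.58 in AAC + DAPA, 5.22 in AAC and 4.94 in sham. AAC + DAPA lay 1.56-fold above sham (0.64), and neither AAC minus sham (0.28) nor AAC + DAPA minus AAC (0.36) reached 1.5-fold. Hcn3 read 2.60 in AAC + DAPA, 2.74 in AAC and 2.55 in sham. Of the receptor genes, 3.15% lay at least 1.5-fold under sham and 1.19% at least 1.5-fold above it in AAC + DAPA.

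Some genes of the sinoatrial node were also lower with DAPA. Of 9 such markers, 3 lay at least 1.5-fold under AAC (Rgs6, Tbx3 and Ntm) and 2 under sham (Rgs6 and Tbx3) in AAC + DAPA, and 0 lay above either. Over all genes, 4.18% lay under AAC and 3.38% under sham in AAC + DAPA. The median of the 9 was −0.39 against AAC and −0.18 against sham. Tbx3, a transcription factor that keeps node cells in their pacemaker state, read 5.68 in AAC + DAPA, 6.31 in AAC and 6.31 in sham (log2). Rgs6, which shortens the signal of muscarinic receptors, read 7.31 in AAC + DAPA, 8.63 in AAC and 8.94 in sham. The summed level of the list was 8.51 in AAC + DAPA, 9.40 in AAC and 9.54 in sham, and its fall came mostly from Rgs6. The Tbx3 value in AAC + DAPA lay just above the limit of the low rule on that array, 5.63. Of the 9 genes, 5 were low, with Shox2 and Vsnl1 at the same value on all 3 arrays (3.27 and 3.12). Of 8 atrial markers, Nppa and Dkk3 lay above AAC in AAC + DAPA (4.16% of all genes) and none lay under it (4.18%). The summed level of the list, carried by Nppa, was 19.37 in AAC + DAPA, 17.84 in AAC and 14.38 in sham. Nppa encodes ANP, which the study counts among markers of cardiac hypertrophy, so this sum is not a measure of atrial tissue alone. By qRT-PCR the study reported ANP mRNA in heart tissue higher in AAC than in sham and lower with dapagliflozin than in AAC. On these arrays Nppa lay 2.91-fold above AAC in AAC + DAPA. Myl7, which defines atrial muscle, was low at 3.30 in AAC + DAPA, 3.30 in AAC and 3.54 in sham. The part of node or atrial tissue, or of the clock genes, in the Hcn4 difference was not tested.

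The RefSeq table held promoters of 29 of the 38 channel genes, 39 promoters in all. In the windows of the same length, a GC box lay in 16 of these 39 and in 32.7% of all 32851 promoters of the table, a CCAAT box in 9 of 39 and in 33.8%, and a GATA motif in 1 of 39, that of Scn7a, and in 9.99%. The promoters of Hcn4 and Hcn2 had a GC content of 71.2% and 70.4%, that of Scn4b 66.0% and that of Scn7a 53.2%, with a median of 56.8% over the 39 and of 52.4% over all. Because clock genes separated the sham array, motifs bound by clock factors were searched as well. Neither the E-box (CACGTG, in 6.02% of all promoters) nor the D-box (TTATGNAA, in 3.07%) was found in the 39 windows. The same held for the cAMP response element (TGACGTCA, in 1.55%) and the T-box half-site (AGGTGTGA, in 1.12%). The letters TATAAA of the TATA box (in 12.4% of all) lay in 2 of the 39, those of Cacna1d and Scn2a. A match is a string of letters and not a site known to be bound.

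The largest clock gene differences exceeded those of every channel gene. Arntl, the transcription activator at the core of the clock, read 6.34 in AAC + DAPA, 5.41 in AAC and 9.90 in sham (log2), and its output gene Dbp 16.04 in AAC + DAPA, 15.98 in AAC and 12.06 in sham. For Scn4b, Scn7a, Scn2a, Arntl and Dbp alike, the sham array stood apart from the other two. Their association was not tested, since 3 arrays allow no such test.

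Partners of the channels were listed by role. Of 12 measured partners of sodium channels, none passed 1.5-fold in the 2 comparisons of AAC + DAPA. In AAC, 1 lay at least 1.5-fold under sham (4.98% of all genes). It was Fgf14, which encodes a fibroblast growth factor homologue that binds the tail of sodium channel α subunits, at 6.18 in AAC + DAPA, 6.00 in AAC and 6.72 in sham (log2). Fgf13, the relative known as the main one in the mouse ventricle, read 8.43 in AAC + DAPA, 8.26 in AAC and 8.38 in sham. Ank3, which encodes ankyrin-G and anchors sodium channels at the intercalated disc, carried 10.88 on all 3 arrays.

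Of 15 measured regulators of calcium channels, 2 lay under sham in AAC (4.98% of all genes) and 2 in AAC + DAPA (3.38%). Against AAC, 1 was lower (4.18%) and 1 higher (4.16%) with DAPA. Rrad, a small GTPase that holds back L-type channels by way of their β subunit, read 12.67 in AAC + DAPA, 13.28 in AAC and 13.91 in sham (log2). It lay 1.55-fold under sham in AAC, 2.36-fold under sham in AAC + DAPA, and 1.53-fold under AAC in AAC + DAPA, so that each of the 3 arrays stood apart from the others. Jph2, which holds the T-tubule membrane with its calcium channels close to the sarcoplasmic reticulum, read 11.36 in AAC + DAPA, 10.92 in AAC and 11.69 in sham. For Jph2, AAC lay 1.71-fold under sham, and AAC + DAPA differed from sham by −0.33. Calm3, 1 of the genes of calmodulin, which senses calcium at the channel, read 14.52 in AAC + DAPA, 14.80 in AAC and 15.31 in sham, so that AAC + DAPA lay 1.73-fold under sham. Stac, an adaptor of L-type channels, was the higher one, at 3.59 in AAC + DAPA, 2.78 in AAC and 3.30 in sham, all within the low range.

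Of 7 measured partners of pacemaker channels and cAMP-binding membrane proteins of pacemaker tissue, 2 lay under sham in AAC (4.98% of all genes). In AAC + DAPA, 1 lay above AAC (4.16%) and 1 under sham (3.38%). Bves, a Popeye protein that binds cAMP, read 12.57 in AAC + DAPA, 11.82 in AAC and 13.24 in sham (log2), with AAC 2.68-fold under sham and AAC + DAPA 1.68-fold above AAC and 1.59-fold under sham. Its relative Popdc3 read 10.69 in AAC + DAPA, 10.41 in AAC and 11.22 in sham. For Popdc3, AAC lay 1.75-fold under sham, and AAC + DAPA differed from sham by −0.53. Popdc2 carried 16.53 on all 3 arrays. Kcne2, an auxiliary subunit that can join HCN channels, was low. Of the 8 conduction fibre markers, 6 were low, and 2 (Irx3 and Cpne5) lay above sham in AAC (4.88% of all genes). In AAC + DAPA, 1 (Irx3) lay above sham (3.22% of all genes). None lay at least 1.5-fold under sham, with list medians against sham of 0.00 in AAC + DAPA and 0.17 in AAC. In AAC + DAPA, 1 (Pcp4) lay above AAC and 1 (Cpne5) under it. Kcne1, an auxiliary potassium channel subunit, differed from sham by −0.57 on both other arrays. Irx3, a transcription factor of the ventricular conduction system in mice, read 10.50 in AAC + DAPA, 10.87 in AAC and 9.09 in sham, with AAC 3.43-fold and AAC + DAPA 2.66-fold above sham.

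**Figure D3:**
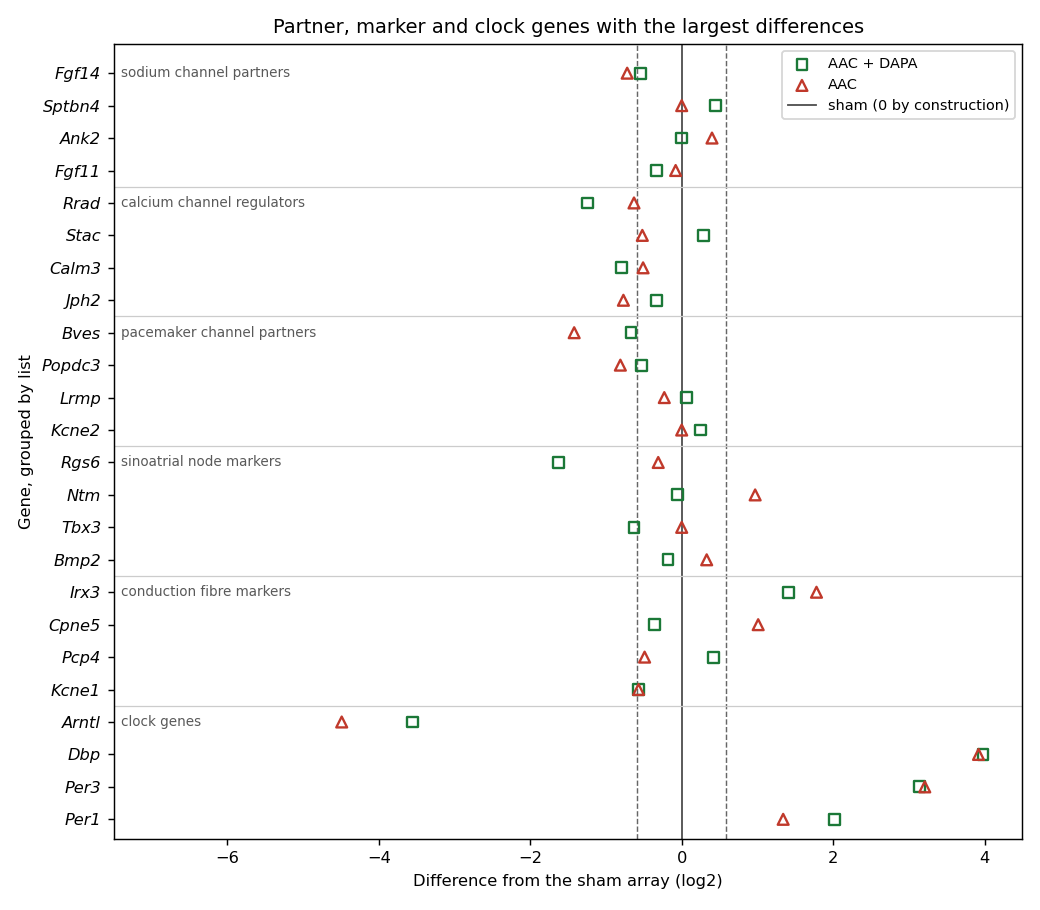
Difference from the sham array (log2, horizontal axis) on the AAC + DAPA array (squares) and the AAC array (triangles) for the 4 genes with the largest difference in each of 6 lists (rows). The vertical line at 0 is the sham array and dashed lines mark 1.5-fold. Rrad lies at −1.24 in AAC + DAPA and −0.63 in AAC, and Arntl and Dbp lie farther from 0 than any partner gene.

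The sizes of the differences over the 38 channel genes were spread much like those over all genes. The median size was 0.105 for AAC minus sham, against 0.120 over all genes, 0.140 against 0.120 for AAC + DAPA minus AAC, and 0.075 against 0.090 for AAC + DAPA minus sham (log2). In these 3 comparisons 30, 31 and 30 of the 38 genes differed by less than 0.30. Of the 10 channel genes that were not low, only Scn4b and Scn7a passed 1.5-fold, both of them in the 2 comparisons with sham. Among all 9395 genes that were not low, 7.23% lay above and 8.62% under sham in AAC, and 5.06% above and 5.34% under sham in AAC + DAPA. The other 5 genes that passed 1.5-fold (Scn2a, Cacna1d, Cacng6, Hcn2 and Hcn4) read within the range of the receptor genes, where 5.61% passed in either direction for AAC minus sham, 6.73% for AAC + DAPA minus AAC, and 4.34% for AAC + DAPA minus sham.

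**Figure D4:**
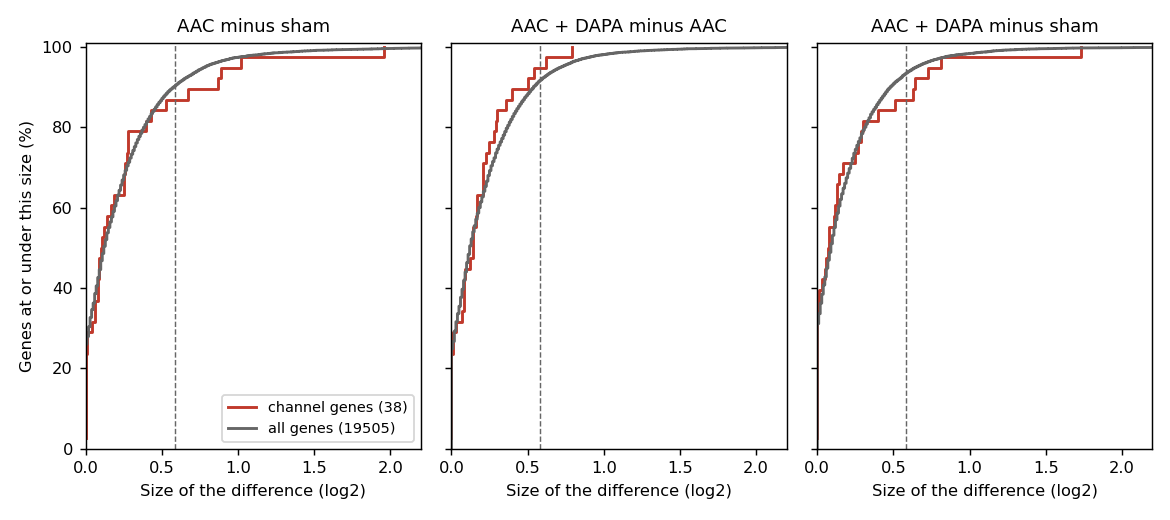
Share of genes (%, vertical axis) whose difference between 2 arrays is at or under a given size (log2, horizontal axis), for the 38 channel genes (red) and all 19505 genes (grey), with AAC minus sham on the left, AAC + DAPA minus AAC in the middle and AAC + DAPA minus sham on the right. The dashed line marks 1.5-fold, the curves run close together below it, and the last red step against sham is Scn4b, at 1.96 and 1.73.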

How the data were processed

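Total RNA of mouse heart was hybridized to 3 Affymetrix arrays, 1 per condition. The deposited values are log2 expression, already normalized, for each probe on each array. Affymetrix Expression Console is named in the submitters' processing notes, and the normalization method is not given in the sources used. The methods name a human array type, while the probe annotation names mouse genes. Of 22206 probes, 19572 name exactly 1 gene. Probes of the same gene were averaged on the log2 scale, and each of the 38 channel genes has 1 probe. Groups come from the sample labels. Differences were counted at 1.5-fold over all 19505 genes, without a filter on low values, and fold values are the log2 differences put back on the linear scale. No test was possible with 1 array per group, and the number of arrays limits the precision. Values are given for channel genes that passed 1.5-fold on an array above its 25th percentile, for those known from heart, node or nerve (4 of these are not analysed here), and for up to 4 genes per list. Further genes were named after their values were seen. The members and lists were chosen with earlier results of these data known. The counting functions were tested on simulated arrays. Promoters are those of RefSeq (GRCm38.p6). Alternatives were median centring, quantile normalization, the highest-mean probe of a gene, filters on low values, a 2-fold threshold and leaving out the X-linked gene. Python 3.11.15, numpy 2.4.6, pandas 2.3.3 and matplotlib 3.10.9 were used.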

Additional observations from a re-analysis of the deposited data

How the results depend on the processing

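With each array centred on its median, 1 channel gene (Cacna1a) instead of none lay above AAC in AAC + DAPA, 1 (Cacna1d) instead of 2 lay under it, and 2 (Scn4b and Cacna1a) instead of 1 were lower in AAC than in sham. Without the genes called low, 1 instead of 4 was higher in AAC than in sham, 0 instead of 2 lay under AAC in AAC + DAPA, and 1 instead of 3 lay above and 1 instead of 2 under sham in AAC + DAPA, since only 10 genes then entered. At 2-fold, 1 lay above sham in AAC, 0 lay under AAC in AAC + DAPA, and 0 lay above and 1 under sham in AAC + DAPA. Quantile normalization, a filter at the 25th percentile and leaving out the X-linked gene changed none of the 6 counts, and taking the highest-mean probe could not, since each channel gene has 1 probe. The median over the channel genes stayed between −0.06 and 0.14 under every alternative run. Among 21 channel genes the largest shift of a difference was 0.07 under centring and 0.06 under quantile normalization, and no called difference changed sign. No paired analysis was possible because each group holds 1 array. With 1 array per group, a difference between conditions and one between animals or hybridizations cannot be told apart.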
